A study of Mus musculus with 3 samples.

Results

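p53 target genes that arrest growth or promote cell death were measured in mouse otic placodal ectoderm with and without Fgf3 and Fgf10. The set held 10 genes, Cdkn1a, Ccng1, Bax, Bbc3, Pmaip1, Perp, Mdm2, Trp53inp1, Zmat3 and Aen. Every probe that carried 1 of these names in the array files was taken, which gave 12 probes of 9 genes, out of 41174 probes with 27962 names. The tenth gene, Aen, is not named as such in the files, and its probes were reached through an older symbol and are given separately. All 12 probes cleared the background in either channel of each array, so the filter on dim probes removed none of them.

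The double null embryos (Fgf3-/-;Fgf10-/-) lacked both fibroblast growth factors, and the double heterozygote embryos (Fgf3+/-;Fgf10+/-) carried 1 null allele of each gene, so both genotypes carried null alleles. Embryos at 4 to 8 somites received no treatment, their otic placodes were dissected out, and each genotype gave 3 pools of 10 placodes. Each of 3 two-colour arrays compared 1 double null pool, labelled Cy5, with 1 double heterozygote pool, labelled Cy3. The dyes were never swapped, so a dye effect of a probe and the genotype cannot be told apart. All values below are log2 ratios of double null over double heterozygote unless they are called levels, which are normalised log2 intensities of 1 channel, and errors of mean ratios are the SE of the limma fit (n = 3 arrays).

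The transcription factor p53 (Trp53 in the mouse) is held low by Mdm2, a ubiquitin ligase that marks it for breakdown. DNA damage, disturbed ribosome assembly or the loss of survival signals can free p53, which then switches on genes that stop the cell cycle, repair DNA or start mitochondrial cell death. Mdm2 is itself a target, which closes a feedback loop, and several embryonic defects of the mouse head are known to depend on p53.

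The number of spots that cleared the background was 27284 to 29177 in the double null channel of an array and 26452 to 28258 in the double heterozygote channel. The single Fgf3 probe had ratios of -0.69, -0.06 and -0.69 on arrays 1, 2 and 3 (limma adjusted p = 0.121), and the Fgf10 probe had 0.31, -0.11 and 0.23 (limma adjusted p = 0.386). Whether either probe falls inside the deleted sequence is not known from the sources used here, so neither checks the labels. Of 13 markers of otic placode and ectoderm, 12 had a tested probe, while Pax2, a defining placode factor, was not well above background. The medians of these markers were below 0 on every array, at -0.39, -0.11 and -0.26, and 2 of 18 probes were past the limma threshold, both lower in double null. Nothing in the labels says whether a pool drew on several litters. In pooled tissue, fewer cells of a type and less RNA per cell cannot be told apart.

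3 probe sequences are shown because the results turn on them: the Bax probe and the Mdm2 probe are both spotted repeatedly, and the Mdm2 and Ccng1 probes shown have the largest ratios among the 12. Each is the 60-base probe of the array design, written 5′ to 3′ in lower case.
Bax, chr7:41641827-41641982, minus strand: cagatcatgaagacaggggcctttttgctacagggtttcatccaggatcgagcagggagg
Mdm2 upstream probe, chr10:117204040-117204099, minus strand: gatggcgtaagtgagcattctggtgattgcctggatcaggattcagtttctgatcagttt
Ccng1 upstream probe, chr11:40693768-40693827, minus strand: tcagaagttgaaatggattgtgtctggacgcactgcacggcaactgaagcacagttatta
Positions are those of the array files, on mouse build mm7. The Bax probe covers 156 genomic bases and so crosses a splice junction. Only sequences with a reading frame without a stop codon were eligible to be shown, so such a frame in each of the 3 is not a result. The Cdkn1a probe, also spotted repeatedly, had no such frame and is not shown. Exon and UTR annotation of this build was not used here.

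None of the 12 p53 target probes passed the limma threshold of adjusted p under 0.05, in either direction. Over all 25506 probes tested, 1.51% passed, 1.22% higher and 0.29% lower in double null. At an unadjusted p under 0.05 there were 4 of the 12, against 20.2% of all probes (11.9% higher and 8.37% lower). This count was 2 of 12 without array 1 or without array 2, against 3823 of 25499 and 3806 of 25502 over all probes. Without array 3 it was 4 of 12, against 4174 of 25499. With the scanner's own processed signals none of the 12 passed after adjustment, but there 0 of all 25506 probes passed. When arrays were only centred on their median, without loess, 11 of the 12 passed, but so did 76.4% of all probes. The 4 probes at an unadjusted p under 0.05 were the Mdm2 upstream and Ccng1 upstream probes, which were higher, and the Mdm2 downstream and Zmat3 probes, which were lower, although the Zmat3 mean was -0.09 without array 2. The same 4 had one sign on all 3 arrays, as did 43.8% of all probes. Of the 12 ratios 4 were above 0 and 8 below, and their median was -0.03, against 0.01 over all probes tested. Their median size without regard to sign was 0.053, against 0.072 over all probes. The 95% intervals of the 12 mean ratios ran from -0.38 to 0.34, or folds of 0.768 to 1.26. These intervals hold for this normalisation and include any dye effect: with median centring Bax, for example, was at 0.56. A p above the threshold does not show that a gene was equal in both genotypes.

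**Figure D1:**
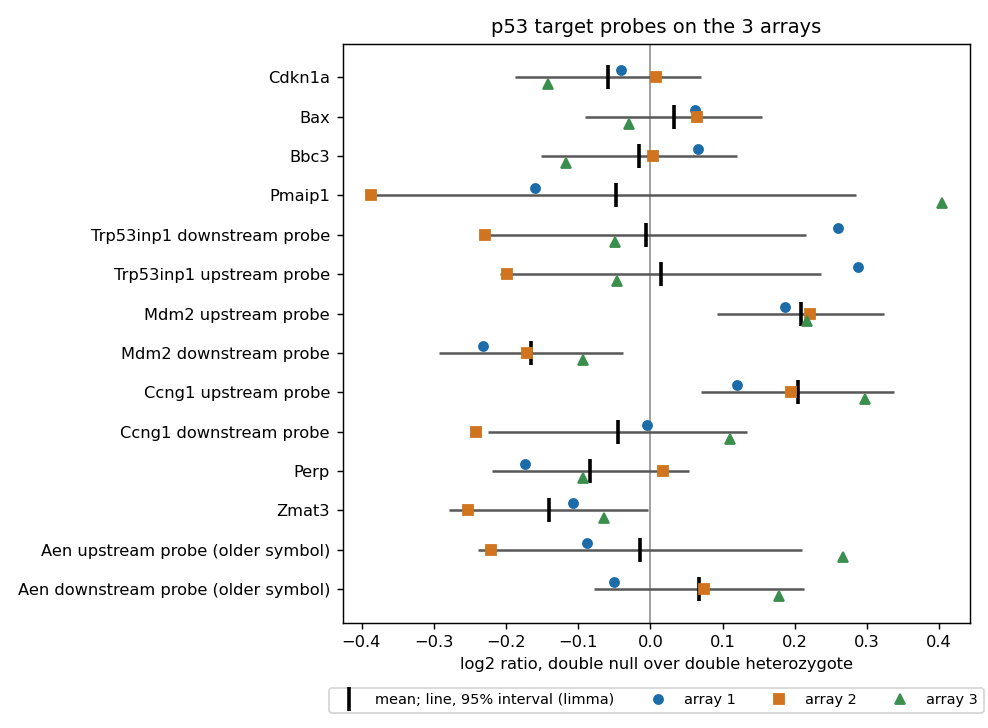
Log2 ratio of double null over double heterozygote (horizontal axis) for each p53 target probe, and for 2 Aen probes found by an older symbol. Coloured symbols are the 3 arrays, black ticks the means and grey lines the 95% intervals of the limma fit; the 2 Mdm2 probes lie on opposite sides of 0 on every array, and Pmaip1 spans -0.39 to 0.40.

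Among the genes that halt the cycle, Cdkn1a encodes p21, the cyclin-dependent kinase inhibitor through which p53 stops cells before DNA replication. Its probe (chr17:27293819-27293878, 10 spots) had levels of 7.13, 7.18 and 7.12 in the double null pools, against 7.17, 7.17 and 7.26 in the double heterozygote pools. The ranges overlapped, and the ratios were -0.04, 0.01 and -0.14. The mean ratio was -0.06 ± 0.05, with a limma adjusted p of 0.577. This was a dim probe: its raw mean signals were 169, 173 and 169 over local backgrounds of 58.8, 60.9 and 57.2 in double null, against 88.3, 94.0 and 109 over 44.7, 44.9 and 44.9 in double heterozygote. With the scanner's processed signals, which subtract the background, the mean ratio was -0.16 (limma adjusted p = 0.379).

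Ccng1 encodes cyclin G1, which binds phosphatase 2A and Mdm2 and feeds back on p53. Its upstream probe, shown above, had levels of 9.03, 9.23 and 9.37 in the double null pools, against 8.91, 9.03 and 9.07 in the double heterozygote pools. The double null pool was higher on every array, with ratios of 0.12, 0.19 and 0.30, although the lowest double null level lay inside the double heterozygote range. The mean of 0.20 ± 0.06, a fold of 1.15, did not pass (limma adjusted p = 0.130). The downstream probe (chr11:40691782-40691841), 1926 bases nearer the 3′ end, had levels of 10.19, 10.10 and 10.64 in double null and 10.20, 10.34 and 10.53 in double heterozygote. Here the arrays disagreed, with ratios of -0.01, -0.24 and 0.11 and a mean of -0.05 ± 0.07 (limma adjusted p = 0.766).

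Among the genes of mitochondrial death, Bax encodes the pore-forming member of the BCL2 family that permeabilises the outer mitochondrial membrane. Its levels were 12.78, 12.76 and 12.63 in the double null pools, against 12.72, 12.69 and 12.66 in the double heterozygote pools. The ranges overlapped, with ratios of 0.06, 0.07 and -0.03 and a mean of 0.03 ± 0.05 (limma adjusted p = 0.756). Its 95% interval, -0.09 to 0.15, allows folds of 0.940 to 1.11. Bax was read in 10 spots per array, and their SD was only 0.020, 0.018 and 0.025. On arrays 1 and 2 all 10 spots lay above 0, and on array 3 only 1 of 10 did. The spots of an array share its 2 pools, so their SD is technical and says nothing of the spread between pools, for which the SE over arrays stands.

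Bbc3 and Pmaip1 encode PUMA and NOXA, BH3-only proteins that neutralise the survival members of the BCL2 family. Bbc3 (chr7:14080459-14080518) had levels of 11.79, 11.69 and 11.57 in double null, against 11.72, 11.69 and 11.69 in double heterozygote. Its double null range enclosed the double heterozygote range, and its ratios of 0.07, 0.0032 and -0.12 had a mean of -0.02 ± 0.06 (limma adjusted p = 0.900). Pmaip1, on chromosome 18, had levels of 10.24, 11.27 and 11.17 in the double null pools, against 10.40, 11.66 and 10.77 in the double heterozygote pools. Levels of the same genotype thus ranged over 1.03 in double null and 1.26 in double heterozygote, and array 1 was lowest in both. This probe was read in 1 spot per array, and both levels of an array come from that spot. The ranges therefore mix differences between spots and arrays with those between pools. The genotype means differed by -0.05 ± 0.14 (limma adjusted p = 0.877). The ratios were -0.16, -0.39 and 0.40, and their SD of 0.407 was larger than that of 99.0% of all tested probes.

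Red blood cell markers also differed between the arrays on which Pmaip1 differed. Their median ratios were 1.14, -0.42 and 1.72, and 3 of 6 markers had a tested probe, while Alas2 and Hbb-y were among those not well above background. The summed linear signals of the tested ones ran from 977 to 11477 in double null and from 1299 to 2233 in double heterozygote. Array 2 was lowest and array 3 highest for both Pmaip1 and these markers, and array 1 was not alike, with Pmaip1 below 0. That order was not particular to red blood cells: the endoderm medians, at -0.23, -0.25 and -0.20, had it too, over a narrow range. The part of either tissue in the Pmaip1 values was not tested.

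Perp encodes a membrane protein of desmosomes that is needed in stratified epithelia and promotes p53-dependent death. Its probe (chr10:18579623-18579682) had levels of 9.04, 9.37 and 9.41 in double null, against 9.21, 9.35 and 9.501 in double heterozygote. The levels followed the array more than the genotype: array 1 was lowest in both. Like Pmaip1, Perp was read in 1 spot per array, so both levels of an array share that spot. The ratios of -0.17, 0.02 and -0.09 averaged -0.08 ± 0.06 (limma adjusted p = 0.454).

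**Figure D2:**
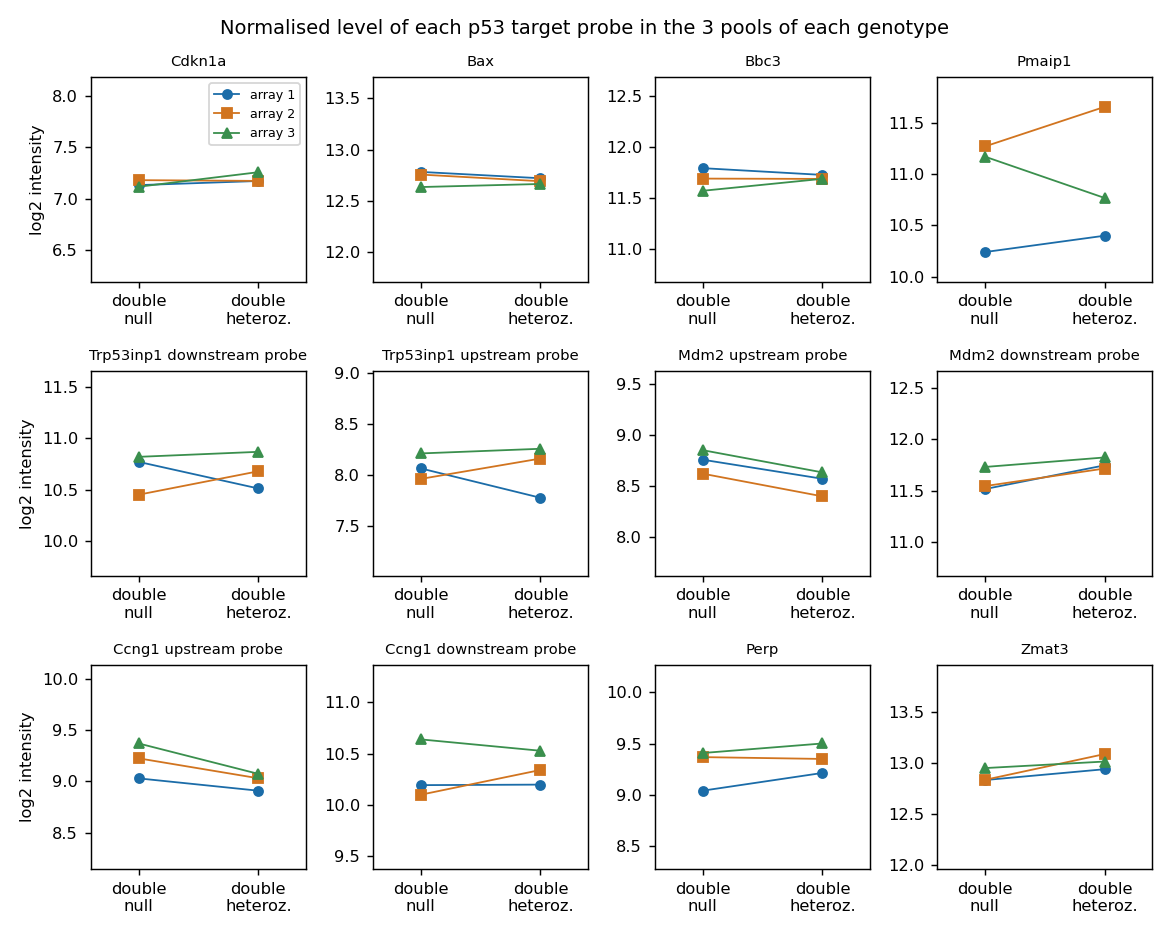
Normalised log2 intensity (vertical axis, every panel spanning the same range) of each p53 target probe in the double null pool and the double heterozygote pool of each array. Lines join the 2 pools hybridised together; all 3 lines fall towards double heterozygote in the Mdm2 upstream and Ccng1 upstream panels and all 3 climb in the Mdm2 downstream and Zmat3 panels, while in the Pmaip1 and Trp53inp1 panels they slope both ways.

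Mdm2, the feedback ligase that limits p53, gave opposite values at its 2 probes. The upstream probe, shown above and read in 10 spots, had levels of 8.76, 8.62 and 8.85 in the double null pools, against 8.57, 8.40 and 8.63 in the double heterozygote pools. Within each array double null was higher, by 0.19, 0.22 and 0.22, while the ranges of the pools overlapped. The mean of 0.21 ± 0.05, a fold of 1.16 with a 95% interval of 1.07 to 1.25, had the lowest p of the 12 (limma adjusted p = 0.0994). All 29 spots used, 10, 10 and 9 on the 3 arrays, lay above 0, between 0.10 and 0.30. The ratios of the 3 arrays had an SD of 0.019, the smallest of the 12 probes, whose median SD was 0.095 against 0.089 over all probes. Each of these ratios averages 9 or 10 spots, whereas most probes were read in 1 spot, so these SDs do not hold the same technical noise.

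The downstream Mdm2 probe (chr10:117200593-117200652) lies 3387 bases further along the gene's strand. Its levels were 11.52, 11.54 and 11.73 in double null, against 11.75, 11.72 and 11.82 in double heterozygote, so double null was lower within each array. The ratios of -0.23, -0.17 and -0.09 averaged -0.17 ± 0.05 (limma adjusted p = 0.168), a fold of 0.892.

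The upstream minus downstream difference in ratio was computed for 4 genes with a pair of probes, after the values had been seen. For Mdm2 it was 0.42, 0.39 and 0.31 on the 3 arrays, with a mean of 0.37. For Ccng1 it was 0.13, 0.44 and 0.19, with a mean of 0.25. For Aen it ran the other way on average, at -0.04, -0.30 and 0.09 (mean -0.08), and for Trp53inp1 it averaged 0.02. The Mdm2, Ccng1 and Trp53inp1 differences each had one sign on every array, small as the Trp53inp1 difference was. With 3 arrays the two-sided exact sign-flip permutation test cannot go below 0.25, the p of each of these differences (0.333 when adjusted over the 4 genes). For Aen the exact p was 0.75. Among 2477 genes with a pair of tested probes within 10000 bases, the median difference without regard to sign was 0.077, and 98.1% had a smaller one than Mdm2 and 93.6% a smaller one than Ccng1. The upstream probe had the higher ratio in 55.8% of those genes. These probe differences kept their sign with the scanner's processed signals, at 0.39 for Mdm2 and 0.26 for Ccng1, but with arrays only centred on their median they were 0.12 for Mdm2 and 0.14 for Ccng1, where Ccng1 lost its one sign (-0.0019, 0.33 and 0.08). Without array 2 the Ccng1 difference was 0.16. No single direction for Mdm2 or Ccng1 can be given from these probes, and which transcripts each probe detects was not analysed here.

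**Figure D3:**
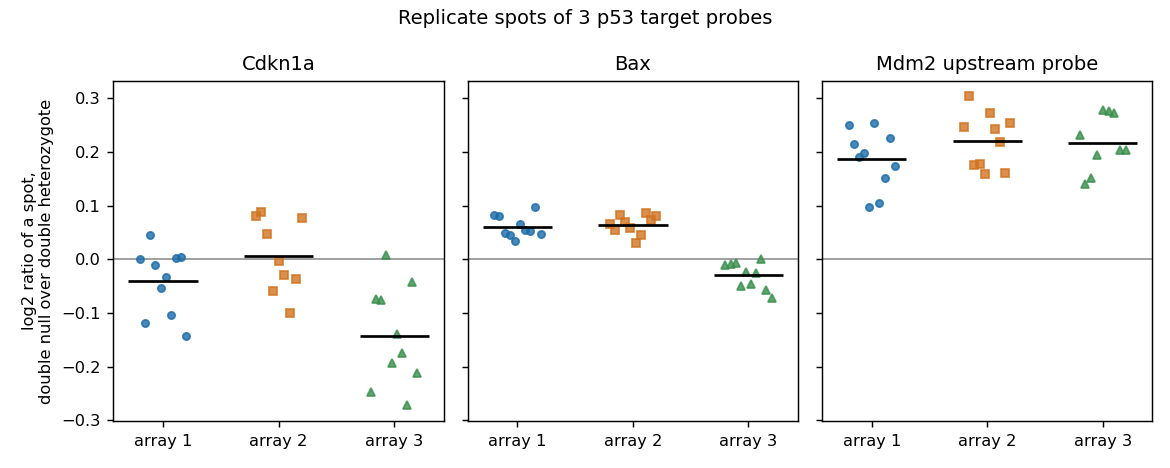
Log2 ratio of double null over double heterozygote of single spots (vertical axis) for the 3 p53 target probes spotted 10 times, by array. Black lines are the means of an array's spots; Mdm2 upstream spots all lie above 0, Bax spots are above 0 on arrays 1 and 2 and mostly below on array 3, and Cdkn1a spots straddle 0 on arrays 1 and 2.

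Trp53inp1 encodes a stress protein that works with p53 kinases in the nucleus and takes part in autophagy. Its upstream probe (chr4:11098180-11098239) had levels of 8.07, 7.96 and 8.21 in the double null pools, against 7.78, 8.16 and 8.26 in the double heterozygote pools. Its downstream probe (chr4:11101174-11101233) had levels of 10.77, 10.45 and 10.82 in double null, against 10.51, 10.68 and 10.87 in double heterozygote. The ranges overlapped for both. The ratios were 0.29, -0.20 and -0.05 at the upstream probe and 0.26, -0.23 and -0.05 at the downstream one, with means of 0.01 ± 0.09 and -0.01 ± 0.09 (limma adjusted p = 0.951 and 0.979). Unlike those of Mdm2, the 2 probes differed by only 0.03, 0.03 and 0.003 on the 3 arrays, a smaller mean difference than in all but 14.98% of genes with a pair of probes. With loess, both probes had double null higher on array 1 and lower on array 2. The closeness depended on the normalisation: with arrays only centred on their median the probes differed by -0.32, -0.25 and -0.25, and with the scanner's processed signals by 0.15 on array 1.

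Of the 6 marker lists of other tissues, those of endothelium and head mesenchyme had their highest median ratio on array 1, as Trp53inp1 did. Endothelium markers had median ratios of 1.30, 0.22 and 0.16, with 4 of 5 tested and Pecam1 not well above background, and summed signals of 1241 to 2435 in double null and 1069 to 1424 in double heterozygote. Head mesenchyme markers, all 5 tested, had medians of 0.46, -0.03 and -0.01, but their summed signals on array 1 were nearly equal, 32648 in double null and 32459 in double heterozygote. On array 1 the medians of hindbrain, neural crest and endoderm markers were below 0, at -0.20, -0.06 and -0.23. Without array 1, the mean ratios of the Trp53inp1 probes were -0.12 upstream and -0.14 downstream. The part of these tissues in the Trp53inp1 values was not tested.

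**Figure D4:**
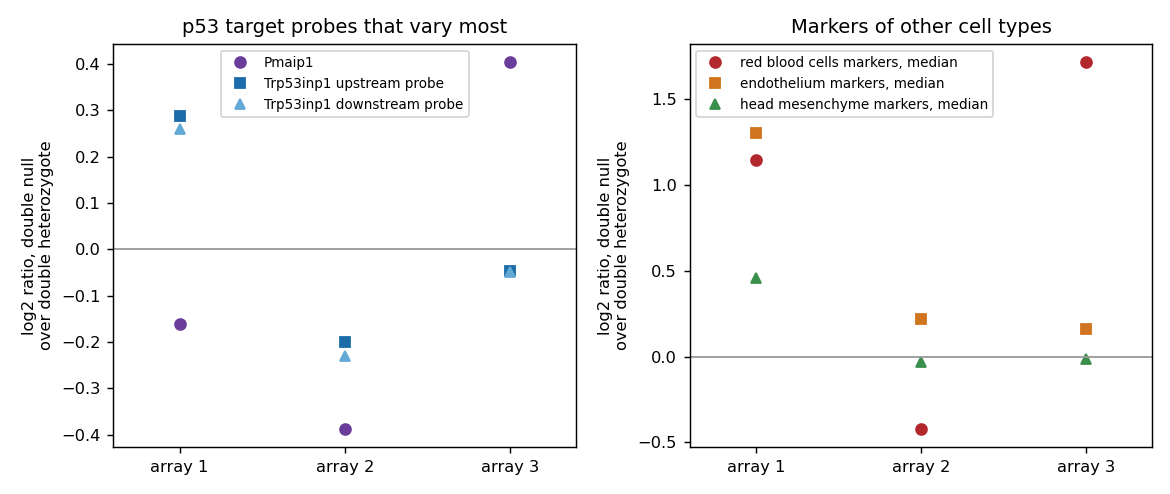
Log2 ratio of double null over double heterozygote (vertical axes, different scales) on each array for Pmaip1 and the 2 Trp53inp1 probes at left, and the median over tested probes of 3 marker lists at right. The 2 Trp53inp1 probes lie within 0.03 of each other on every array, and red blood cell medians run from -0.42 on array 2 to 1.72 on array 3.

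Zmat3 encodes a zinc finger RNA-binding protein that acts in p53-dependent growth control. Its probe (chr3:32143676-32143735) had levels of 12.83, 12.84 and 12.95 in the double null pools, against 12.94, 13.09 and 13.02 in the double heterozygote pools. Double null was lower on every array, with ratios of -0.11, -0.25 and -0.06, and the highest double null level just reached into the double heterozygote range. The mean of -0.14 ± 0.06, a fold of 0.907, did not pass (limma adjusted p = 0.239).

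Aen encodes a nuclease that degrades DNA during p53-dependent apoptosis. Under its older symbol Isg20l1 the array held 3 probes. Those at chr7:74765528-74765587 and chr7:74771219-74771278 match Aen by accession, whereas the one at chr4:14158325-14158384 carries only the name and lies on another chromosome than Aen. The upstream probe on chromosome 7 had ratios of -0.09, -0.22 and 0.27 (mean -0.01 ± 0.09), and the downstream one -0.05, 0.07 and 0.18 (mean 0.07 ± 0.06). Neither had one sign on all arrays. The probe on chromosome 4 had -0.10, -0.12 and -0.01 (mean -0.08 ± 0.05), which is not read as a value for Aen. The limma adjusted p of the 3 lay between 0.447 and 0.951.

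Over the 12 probes the array medians were 0.03, -0.08 and -0.05, against 0.01 on each array over all tested probes, and 6, 6 and 4 of the 12 lay above 0. No array showed the 12 shifted as a block, and ordering them by role did not separate them: arrest genes, death genes and the feedback ligase each had probes on both sides of 0.

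The rest of the pathway was described with 7 lists of 104 genes, of which 101 were on the array under their names and 97 had a tested probe. Of their 173 tested probes 5 were higher and 2 lower past the limma threshold, or 4.05%, against 1.51% of all probes. The median of the 173 was -0.01. These counts fell to 2, 3 and 2 probes when array 1, 2 or 3 was left out. Calls over all probes fell from 384 to 305, 231 and 86. With the scanner's processed signals none of the 173 passed (36 at an unadjusted p under 0.05). There 0 of all 25506 probes passed (4417 unadjusted). Among probes of mean log2 intensity up to 15, none of 165 passed (35 unadjusted), against 21 of all 24749 (4625 unadjusted).

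In the p53 family, the 4 tested probes gave small ratios. Trp53 had -0.04 and -0.00 at its probes, Trp63 had -0.03 and Trp73, with one sign on all arrays, had -0.04. None passed, and further probes of Trp63 and Trp73 were too dim to be tested.

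**Figure D5:**
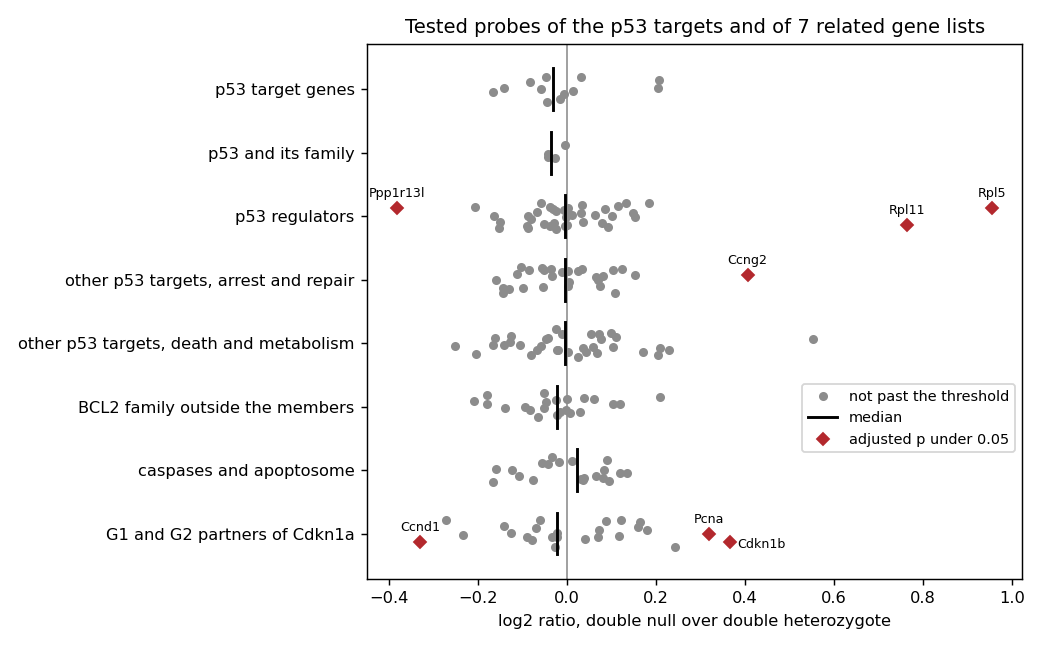
Mean log2 ratio of double null over double heterozygote (horizontal axis) of each tested probe of the p53 targets and of 7 related lists; the vertical scatter within a row has no meaning. Black bars are medians, all between -0.03 and 0.02, and red diamonds are the 7 probes with a limma adjusted p under 0.05.

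Among 20 regulators of p53, 18 had a tested probe, and of 40 probes 2 were higher and 1 lower. Rpl5 and Rpl11, ribosomal proteins that bind and block Mdm2 when ribosome assembly is disturbed, were higher in double null. Rpl5 had ratios of 0.95, 1.11 and 0.81 (mean 0.96 ± 0.07, limma adjusted p = 0.0032). One Rpl11 probe had 0.77, 0.90 and 0.62 (mean 0.76 ± 0.07, limma adjusted p = 0.0048), and the other had -0.09. Both called probes had mean log2 intensities above 17. The 46 probes of that brightness had a median ratio of 0.75, and 43 of the 46 were called higher. With the scanner's processed signals the ratios of the called Rpl5 and Rpl11 probes were 0.50 and 0.31. The part of probe brightness in these 2 calls was not tested. Ppp1r13l, which encodes iASPP, an inhibitor of p53, was lower at 1 probe (-0.52, -0.37 and -0.26, mean -0.38 ± 0.06, limma adjusted p = 0.0480), while its dimmer second probe averaged -0.00. Mdm4, the partner of Mdm2, had 5 probes, all between -0.08 and -0.0047, none past the threshold.

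Among 18 other targets in arrest and repair, all with a tested probe, 1 of 28 probes passed. Ccng2, which encodes cyclin G2, a relative of cyclin G1 found in arrested cells, was higher, with ratios of 0.50, 0.38 and 0.34 (mean 0.41 ± 0.05, limma adjusted p = 0.0233). With the scanner's processed signals, where 0 of all probes passed, its ratio was 0.42 (limma adjusted p = 0.207). Xpc, a sensor of damaged DNA, had -0.13 and -0.16 at its probes, with one sign on all arrays and no call.

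Among 24 other targets in death and metabolism, 21 had a tested probe and none of 34 probes passed, with 17 above 0. Ddit4, the stress-induced inhibitor of the mTOR kinase known as REDD1, had the largest ratios, 0.85, 0.32 and 0.48 (mean 0.55 ± 0.10, limma adjusted p = 0.0576). Its ratio was 0.35 with the scanner's processed signals (limma adjusted p = 0.282). The Ddit4 probe had a mean log2 intensity of 15.8, and the 757 probes over 15 had a median ratio of 0.19. The part of brightness in the Ddit4 ratios was not tested. Tigar, a regulator of glycolysis, had -0.25 and -0.05.

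Of 12 further BCL2 family genes 10 had a tested probe, and none of 22 probes passed, 7 of them above 0. Bcl2l1, the survival gene for BCL-XL, had 0.21, -0.02 and -0.08 at its 3 probes, and Bmf, a BH3-only death gene, had -0.18, -0.21 and -0.09. All 13 caspase and apoptosome genes had a tested probe, and none of 20 probes passed, 11 of them above 0. Casp2, an initiator caspase, had -0.17 and Cycs, cytochrome c, had -0.05, -0.16 and -0.08.

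Among 14 cycle genes that act with or beside p21, all tested, 2 of 25 probes were higher and 1 lower. Cdkn1b, which encodes p27, another inhibitor of cyclin-dependent kinases, had 0.42, 0.27 and 0.41 (mean 0.37 ± 0.06, limma adjusted p = 0.0333), and its second tested probe had 0.16 (limma adjusted p = 0.149). Ccnd1, cyclin D1, was lower with ratios of -0.39, -0.34 and -0.25 (mean -0.33 ± 0.05, limma adjusted p = 0.0428). Pcna, the sliding clamp of DNA polymerase, was higher with ratios of 0.32, 0.40 and 0.25 (mean 0.32 ± 0.05, limma adjusted p = 0.0484), but at 0.013 with the scanner's processed signals, and its mean log2 intensity was 16.2.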

How the data were processed

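Spot values were extracted by the authors with Agilent Feature Extraction 9.5.1.1, per the submitters' processing notes. The deposited scanner files hold mean spot and local background intensity per channel, not normalised, and, per the file headers, background-subtracted and dye-normalised intensity, with a log10 ratio (Cy5 to Cy3) made from it. Log2 ratios are held in the series table the authors deposited, and they match that log10 ratio, once converted, within 2.01e-06, with column medians of -0.0116, -0.0082 and -0.0031. Arrays have no read depth, so precision is limited by their number.

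The background step was normexp (offset 50), followed by loess within each of the 3 arrays (span 0.3, controls weighted 0). Marked outlier spots (143 to 175 per array) were left out and spots of a probe averaged. A probe was kept if well above background on all 3 arrays in Cy5, or in Cy3. Channel levels were scaled between arrays (Aquantile). Mean log2 ratios were tested in limma 3.58.1 (R 4.3.3) as an intercept, and p-values were adjusted by Benjamini-Hochberg across 25506 probes. The fit was tested on simulated data. All arrays lay on 1 slide and were scanned in 1 session.

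The p53 targets, the 7 pathway lists and the marker lists were chosen with earlier results of these data known. Probes were named by accession (23082), symbol (6582), synonym (3073) or the name in the files (8437), through RefSeq records of GRCm38.p6 used for names only. Named genes are every p53 target probe, Fgf3, Fgf10, the p53 family and Mdm4, and from each list the genes past the threshold and the 2 largest with one sign on all arrays. 15 alternative settings are covered in the closing section. One marker gene is not reported here.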

Additional observations from a re-analysis of the deposited data

How the results depend on the processing

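No p53 target probe tested passed under 14 of the 15 alternative settings (12 probes, but 9 with 1 probe per gene), where the lowest limma adjusted p was 0.0943. Centring arrays on their median without loess gave 11 calls (10 higher, 1 lower), but there 76.4% of all probes passed and the median of all moved by 0.33 (log2). In that setting, ratios taken against 0 turned sign for Bbc3 (0.45), Pmaip1 (0.38), the downstream probes of Trp53inp1 (0.41), Mdm2 (0.30) and Ccng1 (0.34), Perp (0.22), Zmat3 (0.41), the Aen upstream probe (0.075) and the Isg20l1-named probe (0.58). Relative to the moved median, the Mdm2 downstream probe (-0.03), Perp (-0.11) and Aen upstream (-0.25) had not turned, Trp53inp1 upstream was at -0.19, Cdkn1a at -0.50 and Bax at 0.23. Loess with a span of 0.1 put the Trp53inp1 upstream probe at -0.014. Leaving out 1 array gave Bbc3 -0.057 to 0.035, Pmaip1 -0.27 to 0.12, Trp53inp1 -0.14 to 0.11 downstream and -0.12 to 0.12 upstream, Ccng1 downstream -0.12 to 0.053 and Aen upstream -0.15 to 0.089, and, with no change of sign, Zmat3 -0.18 to -0.085, Perp -0.13 to -0.038, Cdkn1a -0.091 to -0.017, Bax 0.016 to 0.063 and Aen downstream 0.012 to 0.13. Unadjusted p53 target calls, 4 of 12 in the report, were 3 with the offset of 16, processed signals, series table or span 0.1. Over all probes such calls were 5162 of 25506 in the report and 4894, 4417, 4469 (of 25243) and 4824 in these settings. The signs of the Mdm2 upstream, Ccng1 upstream, Bax and Cdkn1a probes held in every setting run on them.

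Calls over all probes, 384 in the report, were 199 with a normexp offset of 16, 0 with the scanner's processed signals (4417 at an unadjusted p under 0.05) and with the series table (4469), 11 with a span of 0.1, 19476 with median centring, 993 with an intensity trend in the prior, and 86 to 305 with 1 array left out, lowest without array 3. The higher share of calls was 80.7% in the report, 90.5% with the offset of 16 and 64.0% with the trend. The 7 pathway calls became 2, 0 (36), 0 (38), 0 (42) and 136 in the first 5 of these, and 2 to 3 with 1 array left out. Among probes of mean log2 intensity up to 15, a limit chosen after seeing the data, 21 of all and 0 pathway probes (35 unadjusted) passed. Causes of these shifts were not tested. The slide block was not run, since all arrays share 1 slide. The fit on ratios within arrays already pairs the pools hybridised together.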
